A study of Mus musculus with 48 samples.

Results

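The Pax, Lhx, Nkx, Irx and Dlx genes and the sine oculis-related genes, such as Six3, encode transcription factors that pattern the embryo, and they were examined in mouse embryonic stem cells that lacked the zinc finger proteins ZBTB11, ZFP131 or both. Members were the protein-coding genes whose symbol is one of these 6 family names directly followed by a number, which gave 49 of 21887 protein-coding genes: 14 Nkx, 9 Pax, 8 Lhx, 6 Irx, 6 Dlx and 6 sine oculis-related genes. Every value below was read within 1 kb of either gene end on the mm10 assembly. ChIP-seq, which recovers the DNA bound by a protein or carrying a histone mark, was measured in 48 samples that form 24 groups of 2. The genotypes, all in the Ainv15 line, were a double knockout, Zbtb11KO, Zfp131KO and wildtype. Zbtb11KO carried an inducible HA-tagged Zbtb11 transgene and Zfp131KO an inducible HA-tagged Zfp131 transgene, the double knockout carried HA-tagged ZBTB11 and V5-tagged ZFP131, and wildtype was the iCre line. For histone marks, polymerase and cofactors, cells were grown for 3 days with LIF, without doxycycline and without the kinase inhibitors. Cells for HA were grown for 3 days with doxycycline, LIF and the inhibitors, so binding and the knockout effects were measured in different media. The labels name 1 line per genotype, so an effect of a knockout and a difference between lines cannot be told apart.

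Homeodomain and paired-domain factors of these families act as selector genes: each is switched on in particular territories of the embryo and specifies the cell types that arise there. In embryonic stem cells such genes are known as bivalent, because their promoters carry the activating mark H3K4me3 together with the Polycomb mark H3K27me3. NELF is a factor that holds RNA polymerase II paused just after it starts transcription. SIN3A and CHD4 are subunits of histone deacetylase complexes, and SETD1A is an H3K4 methyltransferase.

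Promoters of developmental regulators are often rich in CpG, the dinucleotide that Polycomb and H3K4 methyltransferase complexes are known to be recruited to. RefSeq promoter sequences (GRCm38.p6, the assembly also called mm10; 250 bases before to 50 bases after the start) matched 35 of the 49 members. The 300-base windows held a median of 17 CpG in members, against 13 over all 17492 promoters of protein-coding genes, and at least 10 CpG in 85.7% of members against 57.2% of all genes. Other homeodomain genes had a median of 19 CpG, with at least 10 in 84.3%. The motif was the letters CG, which reads the same on both strands and occurs at least once in 94.8% of all these promoters. A match describes the letters only. The sequences of 4 members are shown, on the minus strand and 5′ to 3′, with every CpG in capitals. Dlx2 (chr2:71546705-71547004, 29 CpG) has events of both factors inside the window. Nkx2-9 (chr12:56613235-56613534, 15 CpG) was the member called in the most tables. Six4 (chr12:73113376-73113675, 15 CpG) was the only member with H3K4me3 and no H3K27me3 in wildtype, and Lhx8 (chr3:154330511-154330810, 4 CpG) had the fewest CpG.
Dlx2: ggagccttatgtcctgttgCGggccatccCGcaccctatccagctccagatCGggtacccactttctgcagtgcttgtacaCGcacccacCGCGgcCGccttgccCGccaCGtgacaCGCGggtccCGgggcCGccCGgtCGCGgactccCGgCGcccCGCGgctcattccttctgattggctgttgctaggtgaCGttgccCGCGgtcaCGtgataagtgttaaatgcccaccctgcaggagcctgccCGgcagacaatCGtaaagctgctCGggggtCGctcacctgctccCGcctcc
Nkx2-9: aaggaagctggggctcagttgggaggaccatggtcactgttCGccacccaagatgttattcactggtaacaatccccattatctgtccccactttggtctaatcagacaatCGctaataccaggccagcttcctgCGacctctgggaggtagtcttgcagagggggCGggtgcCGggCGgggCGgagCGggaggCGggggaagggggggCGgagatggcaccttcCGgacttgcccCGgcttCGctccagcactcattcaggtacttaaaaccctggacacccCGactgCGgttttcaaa
Six4: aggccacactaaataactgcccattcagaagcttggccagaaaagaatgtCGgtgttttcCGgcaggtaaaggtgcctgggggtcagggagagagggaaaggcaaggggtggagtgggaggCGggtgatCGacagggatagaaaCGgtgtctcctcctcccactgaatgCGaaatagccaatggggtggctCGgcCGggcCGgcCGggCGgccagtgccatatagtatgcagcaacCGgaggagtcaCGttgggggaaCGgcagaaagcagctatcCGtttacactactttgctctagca
Lhx8: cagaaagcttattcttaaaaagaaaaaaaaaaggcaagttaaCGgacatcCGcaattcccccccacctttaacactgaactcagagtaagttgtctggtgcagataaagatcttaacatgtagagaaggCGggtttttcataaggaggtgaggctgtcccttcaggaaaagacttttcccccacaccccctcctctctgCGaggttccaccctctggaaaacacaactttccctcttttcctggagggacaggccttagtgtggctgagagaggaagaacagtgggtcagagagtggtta

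In wildtype cells the members were marked by H3K27me3 over long domains, with little H3K27ac and little polymerase II. The lists give reads pooled over libraries with no value per library, so these levels are descriptions without a test. H3K27me3 was listed at 47 of 49 members against 24.6% of all protein-coding genes, and the exceptions were Pax4, an islet cell factor, and Six4, a muscle and sensory organ factor. The listed domains held a median of 3400 reads over 7026 bp at members, against 401 reads over 1301 bp at all listed genes. Six3, which patterns the forebrain and eye, had the most H3K27me3 reads, 11869, and Lhx4 had the fewest, 12. H3K4me3 was listed at 45 members against 64.2% of all genes, with a median of 628 reads in members and 2111 in all listed genes. The highest H3K4me3 level was at Six4, with 4556 reads, and the lowest at Pax5, a B cell factor, with 19. Both marks were listed at 44 members, or 89.8%, against 90.9% of 77 other homeodomain genes outside the Hox clusters and 22.5% of all genes. Irx2, Lhx3 and Lhx4 had H3K27me3 alone and Pax4 had neither mark.

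H3K27ac, a mark of active promoters and enhancers, was listed at Six4 with 191 reads and at Six5 with 128 reads, and at no other member. That is 4.08% of members against 46.2% of all genes. Six5 lies beside Dmpk and Bhmg1, whose ends fall within 1 kb of its own, so its values cannot be told apart from theirs. Neighbouring ends were also present at Lhx3 (Qsox2), Nkx6-2 (Inpp5a) and Pax9 (Slc25a21). Polymerase II phosphorylated at serine 5, the form found early in genes, was listed at 18 members (36.7% against 57.4% of all genes). Its reads were highest at Six5, with 1042, and lowest at Nkx2-6, Pax7 and Nkx2-3, with 12 each. NELF events were listed at 37 members (75.5% against 59.3%), from 52.5 reads at Dlx6 to 738.8 at Six5, with medians of 128.8 reads in members and 561.55 in all listed genes. At 20 members (40.8%) NELF was listed where serine 5 polymerase II was not, against 7.3% of all genes and 40.3% of the other homeodomain genes. SIN3A was listed at 41 members (83.7% against 60.5%), with 762.7 reads at Dlx2 and 38.6 at Pax8 as the extremes. SETD1A was listed at 24 members (49% against 43.7%), from 46.2 reads at Lhx6 to 329.1 at Six5. CHD4 was listed at Nkx2-2, Nkx2-6 and Six5 only, 6.12% of members against 11.3% of all genes, with 32.4 to 38.2 reads.

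**Figure D1:**
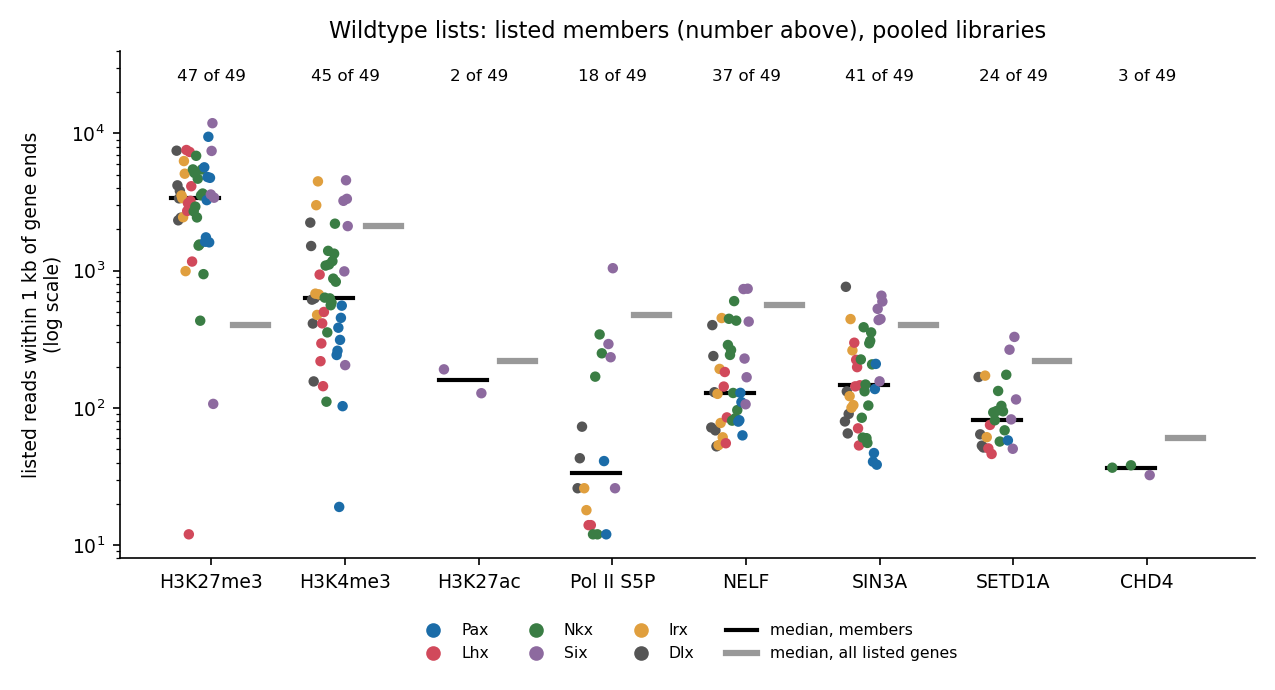
Reads listed within 1 kb of gene ends in the wildtype lists (log scale), 1 point per listed member coloured by family, with the median of listed members in black and of all listed protein-coding genes in grey. Members lay above the grey median for H3K27me3 (3400 against 401 reads) and below it for the other targets, such as NELF (128.8 against 561.55 reads).

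Events of the HA-tagged factors were weak at these genes. ZBTB11 was listed at 22 members (44.9% against 35.9% of all genes) with a median of 56.35 reads, against 119.6 reads at all listed genes. They included Dlx1, Dlx2, Dlx4 and Dlx5 of the Dlx genes, Lhx1 and Lhx5 of the Lhx genes, Pax1 and Pax7 of the Pax genes, and Irx3. The most ZBTB11 reads were at Dlx4, with 297.3 over 3 events, followed by Pax1, a sclerotome factor, with 175.5. The fewest were at Nkx2-6, with 26.4. ZFP131 was listed at 11 members (22.4% against 10.2%), with a median of 38.1 reads against 112.8 at all listed genes. It reached 59.9 reads at Nkx2-5, the cardiac factor, and 58.3 at Dlx2, which specifies forebrain interneurons with Dlx1. Both factors were listed at 9 members, among them Dlx1, Dlx2, Irx3, Lhx5 and Nkx2-5. In the Dlx2 sequence above, the ZFP131 event lay 3 bp inside the start and the ZBTB11 event 94 bp before it, at bases 254 and 157 of the window. Among other homeodomain genes, 45.5% had a ZBTB11 event, with a median of 50.9 reads. A ZFP131 event was listed at 11.7% of them, with a median of 47.3 reads. Under a stricter p, 10 members kept a ZBTB11 event and 0 a ZFP131 event. The shares of all genes at that p were not counted.

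H3K27me3 was lower in Zfp131KO than in wildtype at 17 of the 47 members with a region, and higher at 0. The background was 6.59% of all genes lower and 9.95% higher at the same threshold, an adjusted p under 0.05 in the authors' deposited table of DESeq2 results. The median log2 fold change was -0.73 over members and -0.15 over all genes, and it was below 0 at 43 of 47 members. Of 76 other homeodomain genes, 28 (36.8%) were lower, with a median of -0.75. Among 269 other genes with wildtype H3K27me3 reads in the members' interquartile range, 74 (27.5%) were lower, with a median of -0.72. Whether members differ from these genes was not tested. The calls comprised 5 Nkx, 4 Lhx, 4 Pax, 2 Dlx and 1 Irx gene, and Six3.

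The lowest value in the authors' deposited table was -1.81 at Nkx2-9, a ventral neural tube factor (SE 0.36, adjusted p = 2.31e-05). By the authors' deposited table it was followed by Nkx2-4 at -1.14 (SE 0.34, adjusted p = 0.00971) and Lhx9, a gonad factor, at -1.06 (SE 0.33, adjusted p = 0.0119). The authors' deposited table had -1.05 for Nkx2-2, which specifies ventral neurons and islet cells (SE 0.31, adjusted p = 0.0076), and -1.04 for Dlx1 (SE 0.32, adjusted p = 0.013). The smallest of the 17 called differences were -0.85 at Pax7, -0.84 at Dlx2 and -0.83 at Irx3 in the authors' deposited table, each with SE 0.30 to 0.32. Only 3 of the 17 also passed an adjusted p under 0.01.

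The listed domains were smaller too. H3K27me3 reads at Nkx2-9 were 90 in Zfp131KO, against 1551 in wildtype, and its domains covered 368 bp against 3643 bp. At Six3 they were 1085 in Zfp131KO over 3363 bp, against 11869 in wildtype over 22455 bp. Dlx1 had 1867 reads in Zfp131KO and 7481 in wildtype. All 17 called members had fewer listed reads in Zfp131KO than in wildtype. Over all 47, the median log2 ratio of listed reads was -1.64, against -0.84 over all genes. It was -1.78 over other homeodomain genes and -1.40 over other genes of like wildtype reads. These lists are not scaled for depth, and their totals are not given.

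**Figure D2:**
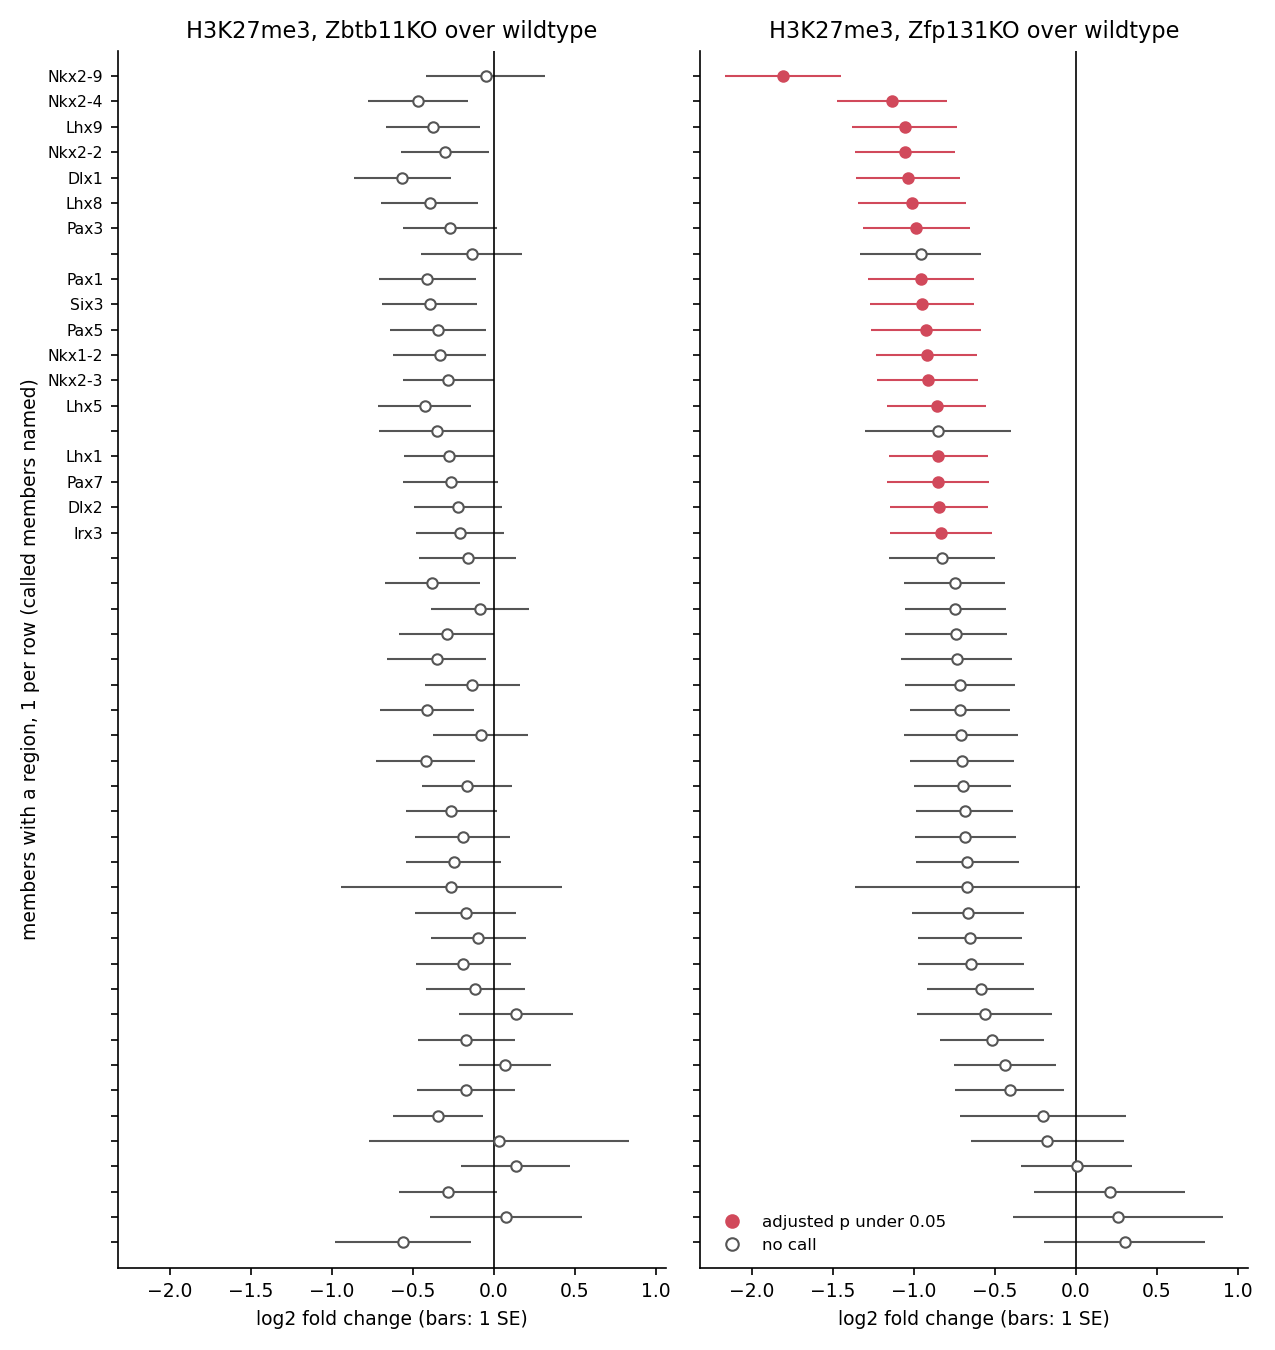
H3K27me3 log2 fold changes over wildtype from the authors' deposited tables for the 47 members with a region, named where called, in Zbtb11KO (left) and Zfp131KO (right), with bars of 1 SE and filled red points for an adjusted p under 0.05. In Zfp131KO 17 members are filled, all below 0, and in Zbtb11KO none is.

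In Zbtb11KO no member was called for H3K27me3, against backgrounds of 6.46% higher and 3.51% lower over all genes. The regions had a median length of 4162 bp at members and 74 bp over all genes. At the same threshold 0 of 75 other homeodomain genes were called. Among 269 other genes of like wildtype H3K27me3 reads, 0 were higher and 4 lower. The median in the authors' deposited table was -0.26 over members, with 42 of 47 below 0, against -0.13 over all genes, -0.25 over other homeodomain genes and -0.28 over other genes of like wildtype H3K27me3 reads. Nkx2-9 depended on the region taken: in the authors' deposited table the short region with the most signal, 39 bp long, had -0.05 (SE 0.37, adjusted p = 0.94), and its longest region had -0.95 and was called. Its listed reads were 582 in Zbtb11KO and 1551 in wildtype.

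H3K4me3 was higher in Zfp131KO than in wildtype at 9 of 46 members with a region and lower at 1. The background in the authors' deposited table was 33.5% of all genes higher and 4.18% lower. The share higher was 10.8% among other genes of like signal and 25.7% among other homeodomain genes, and no difference between these sets was tested. Highest in the authors' deposited table stood Nkx2-9, at 2.38 (SE 0.20, adjusted p = 1.12e-28). There the authors' deposited table also had 1.14 for Nkx2-1, a thyroid, lung and forebrain factor 74.5 kb away (SE 0.45, adjusted p = 0.0428), and Pax9, 78.1 kb on the other side of Nkx2-9, had 0.49 (SE 0.50, no call). The next called members in the authors' deposited table were Nkx2-3 at 0.80, Dlx6 at 0.78 and Pax5 at 0.78, the last from a region of 41 bp and with -0.50 in a window of 5 kb. Larger values without a call in the authors' deposited table were 1.29 at Dlx5 (SE 0.55), 0.99 at Pax3 (SE 0.54) and 0.98 at Irx2 (SE 0.65). The 1 lower call in the authors' deposited table was Pax1, at -1.29 (SE 0.50, adjusted p = 0.0414), from a region of 74 bp, and it had 0.39 at its RefSeq promoter start.

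In Zbtb11KO the H3K4me3 table called 26 of 46 members higher and 2 lower, against 42.4% and 24.5% of all genes. Of 73 other homeodomain genes, 64.4% were higher and 6.85% lower, with a median of 1.49 against 0.94 in members. Among other genes of like wildtype H3K27me3 reads the shares were 58.8% and 9.41%, and among those of like signal 24.5% and 33.3%. No difference between these sets was tested. Among members, the largest value in the authors' deposited table, at the regions of highest signal, was 3.67 at Six6, an eye and pituitary factor. Next in the authors' deposited table came 3.46 at Nkx1-1, 3.44 at Lhx2, 2.56 at Lhx6 and 2.38 at Six2, the nephron progenitor factor. The lower calls were Pax8, a thyroid and kidney factor, at -1.47 (SE 0.39) and Nkx2-6 at -1.23 (SE 0.37) in the authors' deposited table. Sizes were smaller in the lists, whose reads are not scaled for depth and are summed over the domains of a gene. Of the 26 members called higher, 21 had more listed reads in Zbtb11KO than in wildtype and 5 more than 2-fold more. Their median was 1.77 in the table and 0.29 as a log2 ratio of listed reads. Over all genes the medians were 0.17 in the table and -0.42 as that ratio. Six6 had 2999 reads in Zbtb11KO, against 2111 in wildtype, and its table value at the 5′ end alone was -0.79. Regions of this table spread widely, with an SD of 2.08, and 12071 of them had no adjusted p.

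**Figure D3:**
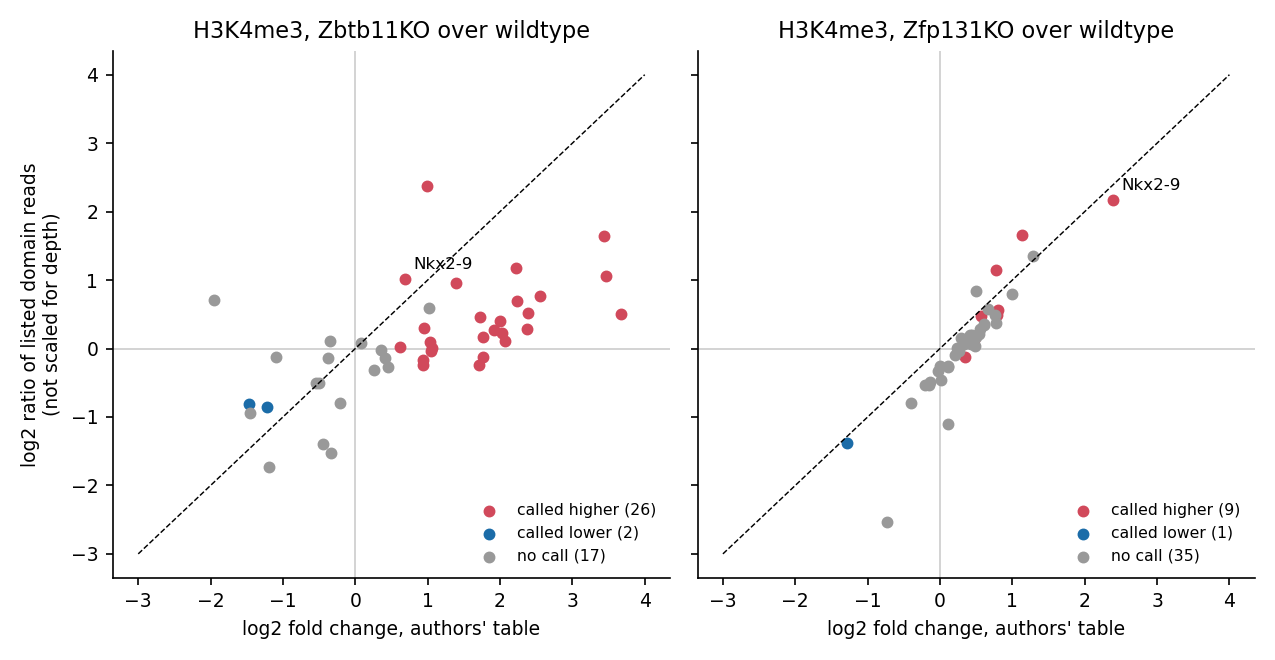
H3K4me3 log2 fold change in the authors' deposited tables (x) against the log2 ratio of listed domain reads, not scaled for depth (y), for 45 members in Zbtb11KO (left) and Zfp131KO (right), with equality dashed. Points called higher in Zbtb11KO lie mostly below the dashed line (medians 1.77 and 0.29), and those in Zfp131KO lie near it.

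The double knockout had no table, and H3K4me3 was read from its list alone. Domains were listed at 46 members (93.9%, against 64.9% of all genes). The reads of this list are not scaled for depth. The median log2 ratio of reads over wildtype was 0.91 for members, 1.08 for other homeodomain genes and 0.72 for all genes. The ratio was above 0 at 39 of 45 members, 64 of 72 other homeodomain genes and 12397 of 13811 of all genes. Nkx2-9 had 3930 reads in the double knockout, 1185 in Zbtb11KO, 2626 in Zfp131KO and 586 in wildtype. Nkx2-1 had 1586, 574, 349 and 111 reads in the same order. Pax6, which specifies eye and forebrain, went the other way. It had 46 reads in the double knockout, 119 in Zbtb11KO, 54 in Zfp131KO and 313 in wildtype. The authors' deposited tables made no call for it, at -0.45 (SE 0.54) in Zbtb11KO and -0.73 (SE 0.42) in Zfp131KO.

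NELF events were lost at most members in every knockout, and also at most other genes with as few reads. Of the 37 members listed in wildtype, 2 were also listed in the double knockout (Dlx3 and Nkx2-9), 10 in Zbtb11KO and 12 in Zfp131KO. Counting members without regard to wildtype, events lay at 2, 11 and 13 of 49, where 29.1%, 43% and 44% of all genes had one. The kept shares were 5.41%, 27% and 32.4%, against 48.9%, 72.1% and 73.8% of all genes, and against 9.45%, 30.8% and 35.6% of other genes with wildtype reads in the members' interquartile range. Other homeodomain genes kept 13.6%, 42.4% and 43.9%. No difference between these sets was tested. The headers give 71.6 M, 51.1 M, 61.5 M and 60.5 M reads for the double knockout, Zbtb11KO, Zfp131KO and wildtype, and the wildtype header names 1 replicate where the others name 2. Dlx3, a skin and bone factor, had 95.4 reads in the double knockout, 91.1 in Zbtb11KO, 90.1 in Zfp131KO and 238.7 in wildtype. Nkx2-9 had 79.4 reads in the double knockout, 70.4 in Zbtb11KO, 205.4 in Zfp131KO and 128.5 in wildtype.

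**Figure D4:**
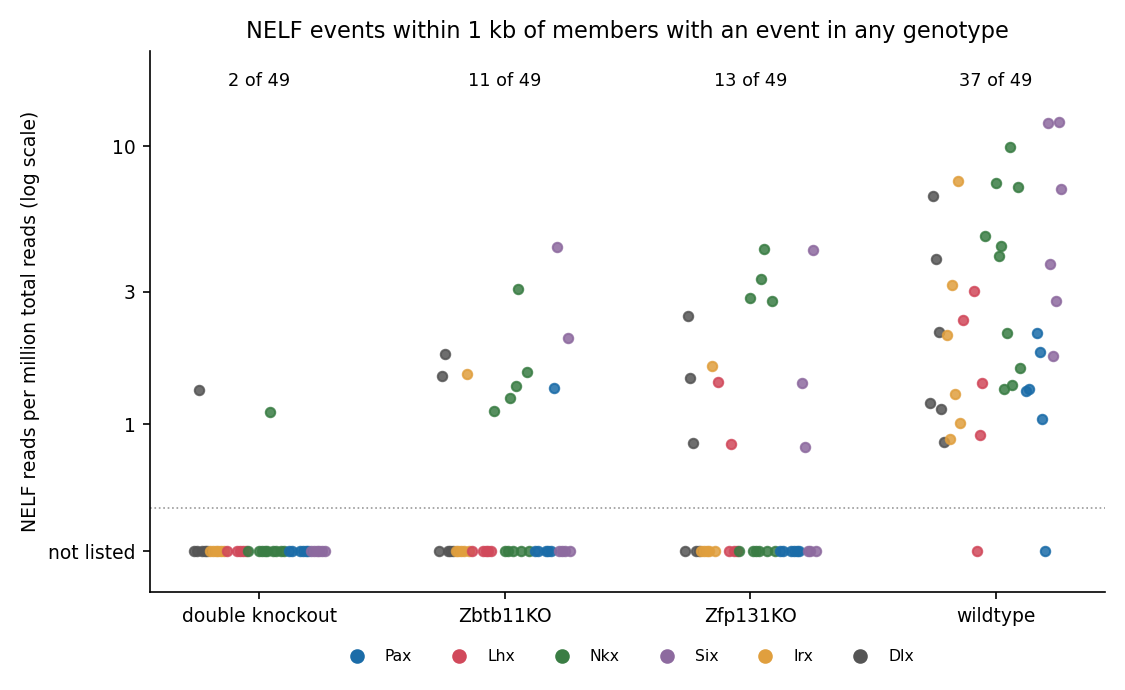
NELF reads scaled to the total reads of each list (log scale) within 1 kb of members with an event in any genotype, 1 point per member coloured by family, with members that have no event below the dotted line. Events are listed at 2 members in the double knockout, 11 in Zbtb11KO, 13 in Zfp131KO and 37 in wildtype.

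NELF had a usable table for Zbtb11KO only. It called 11 of 39 members lower (28.2%) and 0 higher, against 55.3% lower and 0.0901% higher over all genes, and 35.1% lower over other genes of like signal. The share lower was 38.6% among other homeodomain genes and 41.3% among other genes of like wildtype H3K27me3 reads. No difference between these sets was tested. Among the lowest values in the authors' deposited table were -2.28 (SE 0.67, adjusted p = 0.00454) at Pax7, a muscle satellite cell factor, -2.18 (SE 0.65) at Nkx2-4, -1.83 (SE 0.40) at Nkx6-2 and -1.75 (SE 0.73) at Six3, which had 0.0818 around its promoter start. The members' median of -0.93 was close to the -0.97 of all genes. Since the median of all regions was itself -1.04, centring the table on it left 0 members called. The share of all genes called after centring was not counted.

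SIN3A in Zbtb11KO was called higher at 1 of 44 members and lower at 2, against 5.6% and 2.33% of all genes. Its median in the authors' deposited table was -0.26 over members, with 33 of 44 below 0, against -0.13 over other homeodomain genes, 0.07 over other genes of like signal and 0.09 over all genes. Of the 41 members with a wildtype SIN3A event, 34 (82.9%) also had one in Zbtb11KO, against 80.8% of other homeodomain genes and 93.8% of other genes of like reads. Of the lower calls in the authors' deposited table, Six2 had -1.02 (SE 0.25, adjusted p = 0.00252) and Dlx2 had -0.73 (SE 0.20, adjusted p = 0.00765), which was 0.0623 in its longest region. In Zfp131KO 1 of 32 was higher and 0 lower, against 5.62% and 1.57%. The higher call in both of the authors' deposited tables was Nkx2-9, at 1.21 in Zbtb11KO (SE 0.38, adjusted p = 0.0297) and 1.39 in Zfp131KO (SE 0.37, adjusted p = 0.00953). CHD4 had a region at 7 members in Zbtb11KO and 11 in Zfp131KO, and none was called. The CHD4 backgrounds were 2.1% higher and 0.636% lower in Zbtb11KO and 1.1% higher and 6.09% lower in Zfp131KO. H3K27ac had a region at 3 members in each knockout. In Zbtb11KO the 1 call of the authors' deposited table was Nkx2-9, at 1.59 (SE 0.52, adjusted p = 0.0136) from a region of 49 bp, against 3.7% of all genes higher and 9.94% lower. In Zfp131KO no member was called, against 4.56% higher and 11.1% lower, and in the authors' deposited table Nkx2-9 had 1.22 (SE 0.71, adjusted p = 0.183).

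Nkx2-9 was called in 6 tables, Dlx2 in 4, Nkx2-3 and Nkx2-4 in 3 each, and 41 of 49 members in at least 1. Of all protein-coding genes, 60.7% were called in at least 1 table and 0.429% in at least 6. Genes without a region count here as not called. Shares for 3 or 4 tables, and for other homeodomain genes, were not counted. Dlx5, Irx1, Irx2, Lhx3, Lhx4, Nkx6-3, Pax4 and Pax9 were called in none. A ZBTB11 event with 26.7 reads lay near Nkx2-9, and no ZFP131 event. The 2 knockouts share their wildtype libraries, so their values are set side by side only.

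**Figure D5:**
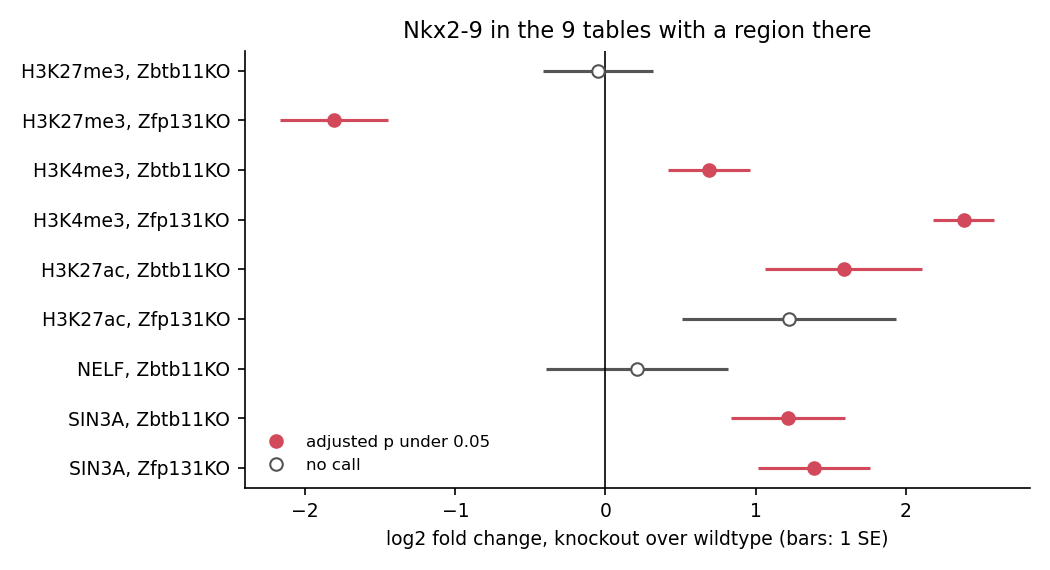
Log2 fold changes at Nkx2-9 over wildtype in the 9 authors' deposited tables with a region there, with bars of 1 SE and filled red points for an adjusted p under 0.05. H3K4me3, H3K27ac and SIN3A lie above 0 and H3K27me3 in Zfp131KO lies at -1.81.

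Of the members with a ZFP131 event, 4 of 11 were lower in H3K27me3 in Zfp131KO, and 13 of 36 without one were lower. The medians in the authors' deposited table were -0.74 and -0.73. For H3K4me3 in Zbtb11KO, 14 of 22 members with a ZBTB11 event and 12 of 24 without one were higher. For NELF in Zbtb11KO, 6 of 19 with one and 5 of 20 without were lower. These splits were not tested.

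Several members lie in clusters, and their H3K27me3 values in Zfp131KO were set side by side, with no test of a difference between neighbours. Dlx1 and Dlx2, 9.43 kb apart, were called, and in the authors' deposited table Dlx2 had -0.84 (SE 0.30). Dlx3 and Dlx4, 15.2 kb apart, were not called, although the authors' deposited table put them within 1 SE of Dlx2, at -0.69 (SE 0.30) for Dlx3 and -0.71 (SE 0.31) for Dlx4. Dlx5 and Dlx6, 9.83 kb apart, had -0.41 and -0.67 without a call in the authors' deposited table. The Dlx6 value came from a region of 43 bp (SE 0.70), and its listed reads were 713 in Zfp131KO and 2429 in wildtype. Irx3 was called at -0.83 (SE 0.32), while Irx5 at -0.74 (SE 0.31) and the other Irx genes, from -0.75 to -0.67 in the authors' deposited table, were not. Six3 had -0.95 (SE 0.32, called) and Six2, 36.5 kb away, had -0.20 (SE 0.51, no call) in the authors' deposited table, the Six2 value from a region of 47 bp. Six6 had -0.85 (SE 0.45) in the authors' deposited table without a call, from a region of 64 bp. Six4 had no region and so no value. Nkx2-2, Nkx2-4 and Pax1, within 1 stretch of chromosome 2, were all called lower. With the longest region of each gene, a setting chosen after seeing the data, 22 of 47 members were called lower. The share of all genes under that setting was not counted.

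The labelled cell type was checked on the H3K27ac and H3K4me3 lists. Of 8 embryonic stem cell markers 7 had an H3K27ac domain in each genotype measured (Esrrb did not), with 6135 reads in Zbtb11KO, 6243 in Zfp131KO and 2335 in wildtype, and 0 of 6 fibroblast markers had one. The H3K4me3 reads of the stem cell markers summed to 51265 in the double knockout, 24905 in Zbtb11KO, 27200 in Zfp131KO and 42679 in wildtype. None of the read sums in this check is scaled for depth. Of 7 stem cell markers with a region, 4 were called lower and 1 higher in Zbtb11KO for H3K4me3, against 24.5% and 42.4% of all genes. For NELF in Zbtb11KO 7 of 8 were called lower, against 55.3% of all genes, and for H3K27ac 5 of 7 higher, against 3.7%. In Zfp131KO, 0 of 7 were called for H3K4me3, against 33.5% of all genes higher and 4.18% lower. For H3K27ac in Zfp131KO, 1 of 7 was called higher, against 4.56% of all genes. Over the fibroblast markers, 5 of 6 had an H3K4me3 domain in each genotype, with 2998, 1666, 2021 and 2231 reads in the double knockout, Zbtb11KO, Zfp131KO and wildtype. H3K4me3 reads over 6 primitive endoderm markers summed to 32812 in the double knockout, 5343 in Zbtb11KO, 8210 in Zfp131KO and 3074 in wildtype, with Dab2 unlisted in all and Gata4 unlisted in wildtype. Over 6 neural progenitor markers they summed to 15776, 7786, 9756 and 8276 in the same order. For H3K4me3, 2 of 5 primitive endoderm markers with a region were called higher in Zbtb11KO and 3 of 5 in Zfp131KO. The neural progenitor counts were 4 of 6 and 2 of 6, against 42.4% and 33.5% of all genes. For NELF in Zbtb11KO, 2 of 5 primitive endoderm markers were called higher, against 0.0901% of all genes, and 4 of 6 neural progenitor markers lower. H3K27ac went the other way at the 1 primitive endoderm marker with a region. It was called lower in Zbtb11KO (-1.42) and Zfp131KO (-1.65), against 9.94% and 11.1% of all genes. The 1 neural progenitor marker with an H3K27ac region was called lower in Zbtb11KO (-1.49) and not called in Zfp131KO (0.48). The part of these cell types in the members' values was not tested.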

How the data were processed

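The submitters' processing notes name Bowtie 1.0.1, bedtools, DESeq2 1.28.1 and the mm10 build. Binding events of NELF, SIN3A, SETD1A, CHD4 and HA come from the authors' run of MultiGPS on pooled replicates and give expected counts of reads, a log2 fold over control and a score, the log2 of a p-value, per the file headers. The authors used DomainFinder on pooled replicates for histone marks and polymerase II, whose domains give read counts with a p-value, per the file headers. The authors' deposited DESeq2 tables give, for each region, the mean signal, the log2 fold change of knockout over wildtype, its error, a Wald score and p-values; the scaling is not given in the sources used here. No file holds a value per library, so every p-value is the authors' own and reflects differences between libraries that may be technical only.

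Gene ends were taken from RefSeq (GRCm38.p6). A gene's value was that of its region of highest mean signal within 1 kb of either end, called at an adjusted p under 0.05; reads of listed events and domains were summed. The promoter start lay over 1 kb from both ends at 9 of the 35 members that have one. Other genes of like signal or reads had values in the members' interquartile range. The NELF table labelled Zfp131KO was identical to that of Zbtb11KO, and the SIN3A event list of Zfp131KO to that of CHD4, and neither was used here. Python 3.11.15, pandas 2.3.3 and matplotlib 3.10.9 were used, and the window search and the centred test were tested on simulated data. Named were the 5 highest and 5 lowest called members per table, members with a factor event or a wildtype H3K27ac domain, the extremes of each wildtype list and neighbouring clusters; other members named were chosen after their values were seen, and some members that this rule covers are not reported by name here. The members and lists were chosen with earlier results of these data known.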

Additional observations from a re-analysis of the deposited data

How the results depend on the processing

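No paired analysis was possible because no file gives a value per library, and for the same reason no replicate could be left out. Each count of members called was repeated under 7 planned settings and 2 chosen after seeing the data (the longest region of a gene, and 1 kb around RefSeq promoter starts). Of 99 such counts, 84 stayed within 1.5 times, and these include counts of 0 that stayed 0. H3K27me3 in Zbtb11KO, H3K27ac in Zfp131KO and CHD4 in both knockouts started from 0. Counting shared regions once left all 74 single-gene results the same. The shares of all genes under these settings were not counted. At an adjusted p under 0.01 the counts were 3 for H3K27me3 and 3 for H3K4me3 in Zfp131KO, and 6 for NELF and 0 for H3K27ac in Zbtb11KO. With a window of 5 kb they were 3 and 2 for H3K27ac in Zbtb11KO and Zfp131KO, and 1 for CHD4 in each. H3K27me3 in Zbtb11KO had 1 call with regions weighted by signal and 1 with the longest region, both Nkx2-9. Centring left 0 NELF calls. With regions at or above the median signal, NELF kept 4 and SIN3A in Zfp131KO 0, which tests fewer members. At 5′ ends alone, known for 35 members, H3K4me3 in Zfp131KO had 6, and around promoter starts H3K27ac in Zfp131KO had 1. Members with a ZBTB11 event numbered 10 at a stricter p and 12 at 5′ ends, and with a ZFP131 event 0 and 4. NELF events lay at 23, 7 and 5 members in Zbtb11KO, at 5 kb, a stricter p and 5′ ends. In Zfp131KO there were 8 at a stricter p and 7 at 5′ ends, and in the double knockout 7, 1 and 1. Among single genes, the sign turned for H3K27me3 in Zfp131KO at Lhx8 (0.32, weighted) and Pax5 (0.98, 5 kb). For H3K4me3 it turned in Zbtb11KO at Nkx1-2 (-0.70) and Six6 (-0.79), both at 5′ ends and promoter starts, and in Zfp131KO at Six6 (-0.12, likewise), Pax1 (0.39, promoter starts) and Pax5 (-0.50, 5 kb). It also turned for NELF in Zbtb11KO at Six3 (0.0818, promoter starts) and SIN3A in Zbtb11KO at Dlx2 (0.0623, longest region). Except where fewer members were tested, the cause was not tested.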
